A study of Mus musculus with 10 samples.

Results

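The transcripts of 10 inhibitory receptor and exhaustion genes were measured by bulk RNA-sequencing in splenic γδ T cells after a resolved malaria infection. The genes were Ctla4, Pdcd1, Btla, Tigit, Lag3, Havcr2, Cd160, Cd244a, Entpd1 and Tox, matched by Entrez identifier among the 27179 genes of the count table. All 10 had enough counts for testing and were among the 12655 genes tested. The cells were γδ T cells of an effector memory phenotype (EM, CD62L- CD44+), sorted with CD3 and γδTCR also in the gate from female C57BL/6 mice infected at 6 to 8 weeks of age or kept uninfected. The pre-exposed group was 5 mice infected with Plasmodium chabaudi, a rodent malaria parasite, and given chloroquine and pyrimethamine from day 14 of infection. The naïve group was 5 uninfected mice that received the same drugs at the same time, so that drug treatment was common to both groups. Spleens were taken 12 weeks after the end of treatment, and 1 library was made from each mouse from an input of 1 ng of RNA. The comparison asks which differences in the resting cells remained long after the infection had been cleared.

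Inhibitory receptors are surface proteins that dampen T cell signalling once they bind their ligands on other cells. They appear transiently after activation, and in chronic infection and cancer several of them stay on the surface of T cells that have lost function, a state called exhaustion. Most also have other uses, since regulatory T cells carry CTLA-4 and TIGIT, NK cells carry CD160 and 2B4, and myeloid cells carry TIM-3 and CD39.

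Libraries from pre-exposed mice held 8747888 to 22542832 counts (median 13075118), and those from naïve mice 6587199 to 19993444 (median 14262979). The sorted lineage was present throughout, with Trdc, the constant region of the δ chain, at 1141 to 3626 CPM (counts per 1e+06 of the scaled library size) in pre-exposed mice and 1826 to 3873 CPM in naïve mice. Libraries of pre-exposed mice 2 to 4 stood apart. Their description label lacks the index pair that the other 7 libraries carry, and mitochondrial mRNAs made up 0.789% to 1.79% of their counts, against 3.99% to 9.40% in the others. In these same 3 libraries the correlation of a gene's relative level with its length was -0.536 to -0.239 (Spearman's rho across genes), against 0.259 to 0.413 in naïve mice. Pre-exposed mouse 5, whose label has an index pair, was also outside the naïve range at -0.136, and pre-exposed mouse 1 was within it at 0.273. The 10 leading genes of pre-exposed mouse 5 held 24.7% of its counts. The 10 genes were therefore also compared in pre-exposed mice 1 and 5, whose labels have the style of the naïve libraries.

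Ctla4 was the only one of the 10 genes whose difference passed the test. Its mean was 42.2 ± 19.1 CPM in pre-exposed mice and 11.7 ± 10.1 CPM in naïve mice (SD, n = 5 each). Of all genes tested, 5.12% were called higher in pre-exposed mice by edgeR at an adjusted p below 0.05, and 1.17% lower. None of the 10 was called lower, and none had an unadjusted p under 0.05 in that direction by edgeR, by DESeq2 or by voom and TREAT, where edgeR gave such a p to 8.73% of all genes. Tigit, Lag3, Havcr2 and Entpd1 joined Ctla4 at an unadjusted p under 0.05, which makes 5 of 10 against 15.6% of all genes in the same direction. In 7 of the 10 the log2 fold change was above 0, and the median over the 10 was 0.76, beside 0.02 over all genes tested. Pdcd1, Cd244a, Btla and Tox had fold changes within 1 standard error of 0. Relative to a fold change of 1.5 (voom and TREAT), 0 of the 10 were called, as were only 2 genes of all tested (0.0158% higher and 0.0% lower), and 3 of the 10 were higher at an unadjusted p under 0.05, as were 4.43% of all genes.

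The 250 bases before a transcript start of the RefSeq promoter table are printed for Ctla4, Tigit and Havcr2, the 3 genes with the largest fold changes, to show the proximal sequence from which these transcripts begin. The sequences are those of RefSeq on GRCm38.p6, where 8 of the 10 genes had a window. For Tigit this start lies inside the annotated gene span, which reaches further upstream, to 43665125, so its window does not precede the whole gene. Capitals mark matches, on either strand, to the core letters of factors active in stimulated T cells, namely NFAT (GGAAA), AP-1 (TGANTCA) and RUNX (TGTGGT). Ctla4 had 1 NFAT match, Tigit had 2 NFAT matches and 1 RUNX match, and Havcr2 had 1 AP-1 match and 1 RUNX match. Such letters are common. An NFAT core was present in 55.6% of 32851 windows of the same length, an AP-1 core in 6.75% and a RUNX core in 14%. A match is a description of the sequence and no evidence of binding in these cells.
Ctla4, plus strand, chr1:60908775-60909024: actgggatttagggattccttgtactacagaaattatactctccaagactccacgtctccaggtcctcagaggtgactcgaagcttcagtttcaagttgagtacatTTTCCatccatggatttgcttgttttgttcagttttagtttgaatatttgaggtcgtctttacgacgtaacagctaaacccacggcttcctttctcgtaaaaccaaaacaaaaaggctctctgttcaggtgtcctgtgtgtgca
Tigit, minus strand, chr16:43664185-43664434: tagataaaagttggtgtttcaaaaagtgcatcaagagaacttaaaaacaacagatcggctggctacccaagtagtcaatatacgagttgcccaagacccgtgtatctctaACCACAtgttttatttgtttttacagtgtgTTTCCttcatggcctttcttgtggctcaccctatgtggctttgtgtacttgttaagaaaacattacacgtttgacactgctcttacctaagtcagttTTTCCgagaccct
Havcr2, plus strand, chr11:46454681-46454930: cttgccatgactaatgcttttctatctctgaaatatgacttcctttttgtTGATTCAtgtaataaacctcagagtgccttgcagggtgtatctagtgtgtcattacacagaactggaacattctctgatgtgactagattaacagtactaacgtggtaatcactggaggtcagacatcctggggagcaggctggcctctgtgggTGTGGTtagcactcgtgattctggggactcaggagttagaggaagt

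**Figure D1:**
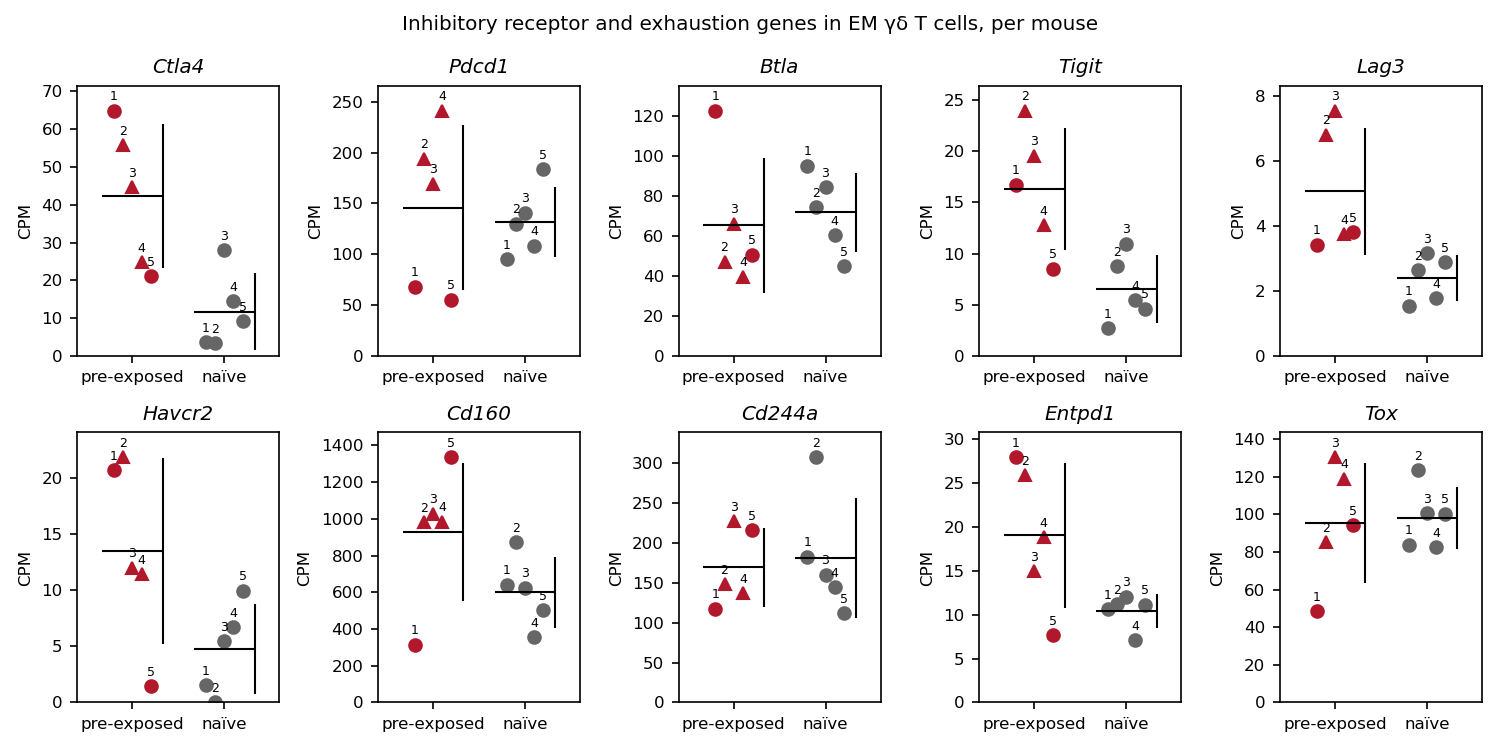
CPM (counts per 1e+06 of the scaled library size) of the 10 genes in each mouse, with pre-exposed mice in red on the left of each panel and naïve mice in grey on the right, numbered by mouse. Triangles are the pre-exposed mice whose label has no index pair, horizontal lines are group means and vertical lines ± 1 SD (n = 5 each). All 5 pre-exposed mice lie above the naïve mice for Lag3 alone, whereas for Ctla4 pre-exposed mice 4 and 5 lie below naïve mouse 3.

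Ctla4, Pdcd1 and Btla encode the receptors of the CD28 family. CTLA-4 competes with the costimulatory receptor CD28 for CD80 and CD86. Ctla4 (chromosome 1, 60909025 to 60915832 on GRCm38) had 65.0, 55.8, 44.7, 24.8 and 21.1 CPM in pre-exposed mice 1 to 5, against 3.60, 3.36, 27.9, 14.4 and 9.25 CPM in naïve mice 1 to 5. Pre-exposed mice 1 to 3 were above every naïve mouse, and pre-exposed mice 4 and 5 were above 4 of the 5. The log2 fold change was 1.86 ± 0.53 (SE, 95% interval 0.74 to 2.98), with an adjusted p of 0.0491 by edgeR, just inside the threshold. The exact permutation test over mice gave p = 0.0238 (two-sided, 0.196 after adjustment over all genes, where 0.00794 is the smallest p that 5 against 5 can give). The call was lost on leaving out any one of 8 libraries, namely pre-exposed mice 1 to 4 and naïve mice 1, 2, 4 and 5, with adjusted p between 0.0515 and 0.137 and a log2 fold change between 1.60 and 2.01. It held without pre-exposed mouse 5 (2.02, adjusted p = 0.0191, with 9.69% of all genes called higher) and without naïve mouse 3 (2.52, adjusted p = 0.0242, with 3.06% called higher), by edgeR in each case. By DESeq2, which called 7.97% of all genes higher, Ctla4 (adjusted p = 0.0106) and Tigit (adjusted p = 0.0225) both passed. Over all 27 alternatives, tests and sets of libraries tried, the log2 fold change of Ctla4 was between 1.34 and 2.52 and the adjusted p between 0.0106 and 0.345.

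PD-1, the product of Pdcd1, binds PD-L1 and PD-L2 and recruits the phosphatase SHP-2. Pdcd1 (chromosome 1, 94038305 to 94052553) had 68.2, 194, 170, 241 and 55.4 CPM in pre-exposed mice 1 to 5, against 95.2, 130.0, 141, 108 and 184 CPM in naïve mice 1 to 5. Pre-exposed mice 2 and 4 were above every naïve mouse and pre-exposed mice 1 and 5 below every one. For Pdcd1 the log2 fold change was 0.15 ± 0.36 (95% interval -0.62 to 0.93, edgeR adjusted p = 0.832), and its sign turned without pre-exposed mouse 2 (-0.03) and without pre-exposed mouse 4 (-0.10). BTLA binds the receptor HVEM, encoded by Tnfrsf14. Btla (chromosome 16, 45223705 to 45252895) had 122, 47.0, 66.0, 39.6 and 50.5 CPM in pre-exposed mice, against 94.97, 74.2, 84.1, 60.2 and 44.8 CPM in naïve mice. The highest and the lowest of the 10 values were both from pre-exposed mice, and the log2 fold change was -0.14 ± 0.32 (95% interval -0.82 to 0.53, edgeR adjusted p = 0.821).

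TIGIT binds CD155 and nectin-2, for which it competes with the activating receptor CD226. Tigit (chromosome 16, 43626137 to 43665125) had 16.7, 24.0, 19.6, 12.8 and 8.54 CPM in pre-exposed mice 1 to 5, against 2.71, 8.79, 11.0, 5.43 and 4.62 CPM in naïve mice. Pre-exposed mice 1 to 4 were above every naïve mouse, and pre-exposed mouse 5 was below naïve mice 2 and 3. The log2 fold change of 1.32 ± 0.40 (95% interval 0.47 to 2.16) narrowly missed the threshold by edgeR (adjusted p = 0.0599), and the exact permutation test gave p = 0.0238. Without pre-exposed mouse 5 it passed (1.42, edgeR adjusted p = 0.0199). Over the alternatives the adjusted p of Tigit was between 0.0109 and 0.641. The span of Tigit overlaps Zbtb20 and Mir568, which are also in the count table. Whether counting used strand is not given in the sources used here, and reads of these genes may not be separated fully.

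LAG-3, a relative of CD4, binds MHC class II. Lag3 (chromosome 6, 124904359 to 124912434) had 3.42, 6.81, 7.56, 3.75 and 3.81 CPM in pre-exposed mice 1 to 5, against 1.54, 2.64, 3.16, 1.77 and 2.89 CPM in naïve mice. It was the only one of the 10 genes whose groups did not overlap, a pattern that 2.77% of all genes tested showed in this direction. Lag3 was also the gene with the lowest levels, and rested on 21 to 140 counts per library in pre-exposed mice and 15 to 51 in naïve mice. The log2 fold change was 1.10 ± 0.40 (95% interval 0.24 to 1.96, edgeR adjusted p = 0.111). The exact permutation p was 0.00794, the smallest possible here, and 0.161 after adjustment over all genes. In all, 3 of the 10 genes (Ctla4, Tigit and Lag3) had an exact permutation p under 0.05 with higher levels in pre-exposed mice, as did 11.2% of all genes.

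TIM-3, encoded by Havcr2, binds galectin-9 and phosphatidylserine and is found on T cells and on macrophages and dendritic cells. Havcr2 (chromosome 11, 46454931 to 46481255) had 20.7, 21.9, 12.02, 11.5 and 1.45 CPM in pre-exposed mice 1 to 5, against 1.54, 0, 5.45, 6.73 and 9.97 CPM in naïve mice. Naïve mouse 2 had no count at all, which allows up to 0.155 CPM at its depth. Pre-exposed mice 1 to 4 were above every naïve mouse, whereas pre-exposed mouse 5 was below every naïve mouse but mouse 2. Its log2 fold change was 1.66 ± 0.74 (95% interval 0.08 to 3.24, edgeR adjusted p = 0.183) and the exact permutation p was 0.151. Without pre-exposed mouse 5 the log2 fold change was 2.01, with an edgeR adjusted p of 0.0389. Over the alternatives the log2 fold change of Havcr2 was between 0.94 and 3.52 and the adjusted p between 0.0269 and 0.574.

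CD160, which binds HVEM and MHC class I, and 2B4, which binds CD48, are shared by NK cells and cytotoxic T cells. Cd160 (chromosome 3, 96798763 to 96829351) was by far the most abundant of the 10, with 315, 981, 1029, 985 and 1337 CPM in pre-exposed mice 1 to 5, against 641, 874, 625, 356 and 501 CPM in naïve mice. Pre-exposed mice 2 to 5 were above every naïve mouse, and pre-exposed mouse 1 was below every one. For Cd160 the log2 fold change was 0.63 ± 0.34 (95% interval -0.08 to 1.35, edgeR adjusted p = 0.263), and 0.85 without pre-exposed mouse 1 (edgeR adjusted p = 0.0460, with 9.47% of all genes called higher). Over the alternatives the adjusted p of Cd160 was between 0.0443 and 1.0. Cd244a, the gene of 2B4 (chromosome 1, 171558718 to 171585316), had 118, 148, 228, 137 and 216 CPM in pre-exposed mice, all within the range of the naïve mice, which had 182, 308, 160, 144 and 112 CPM. Its log2 fold change was -0.10 ± 0.29 (95% interval -0.72 to 0.52, edgeR adjusted p = 0.859), and the sign turned without pre-exposed mouse 1 (0.00093) and without naïve mouse 2 (0.17).

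CD39, encoded by Entpd1, is an ectoenzyme that degrades extracellular ATP towards AMP, and TOX is a nuclear factor required for the exhausted state of CD8+ T cells in mice. Entpd1 (chromosome 19, 40612366 to 40741602) had 28.0, 25.9, 14.96, 18.8 and 7.63 CPM in pre-exposed mice 1 to 5, against 10.6, 11.2, 12.04, 7.09 and 11.1 CPM in naïve mice. Pre-exposed mice 1 to 4 were above every naïve mouse and pre-exposed mouse 5 was below 4 of the 5. The log2 fold change was 0.88 ± 0.34 (95% interval 0.16 to 1.60, edgeR adjusted p = 0.124), and 1.03 without pre-exposed mouse 5 (edgeR adjusted p = 0.0252). Over the alternatives the adjusted p of Entpd1 was between 0.0252 and 1.0. Tox (chromosome 4, 6686353 to 6991557) had 48.5, 85.1, 130.4, 119 and 94.3 CPM in pre-exposed mice, against 83.7, 123, 101, 82.5 and 100.3 CPM in naïve mice. Its means nearly coincided, and the log2 fold change was -0.04 ± 0.26 (95% interval -0.60 to 0.52, edgeR adjusted p = 0.945), with the sign turned without pre-exposed mouse 1 (0.13) and without naïve mouse 2 (0.05).

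**Figure D2:**
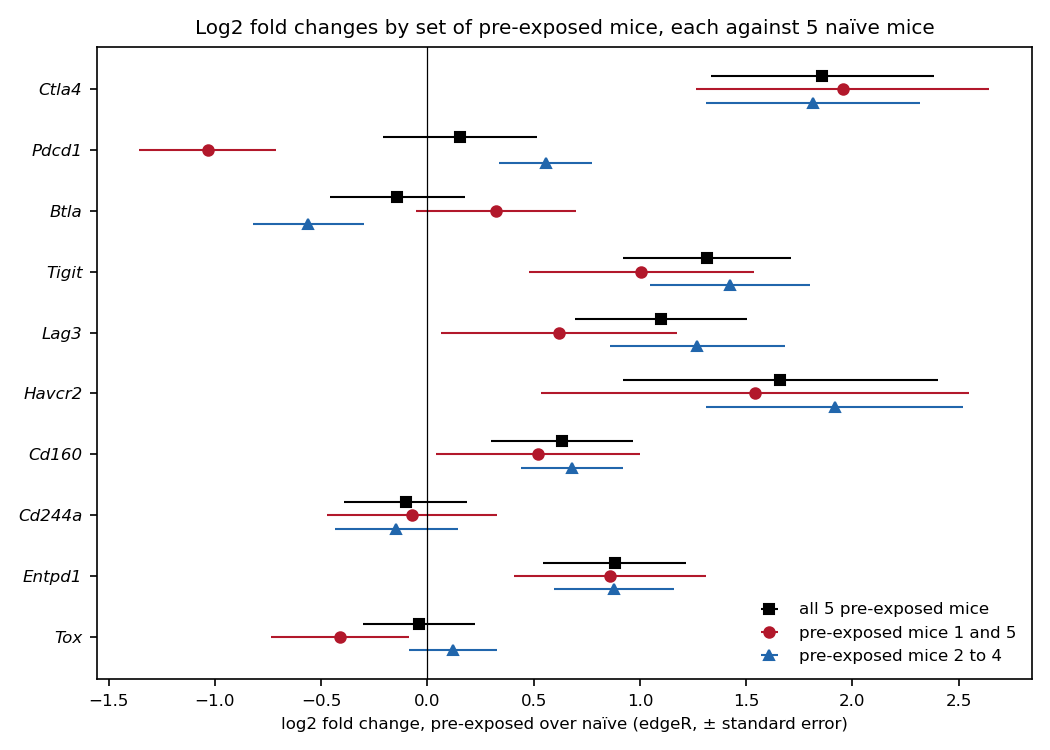
Log2 fold change (edgeR) of each gene, pre-exposed over naïve, with bars of ± 1 standard error, for all 5 pre-exposed mice (black squares), pre-exposed mice 1 and 5 (red circles) and pre-exposed mice 2 to 4 (blue triangles). Each set is set against the same 5 naïve mice. For Ctla4 the sets gave 1.96 and 1.81, whereas for Pdcd1 they gave -1.03 and 0.56.

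The fold changes were then read within the label style that held both groups. In pre-exposed mice 1 and 5 against the 5 naïve mice, 0 of the 10 genes passed by edgeR, with 1 gene higher (Ctla4) and 1 lower (Pdcd1) before adjustment at p under 0.05, where 12.9% of all genes were higher and 2.6% lower by the same measure. After adjustment 0.206% of all genes were called higher and 0.0% lower. Ctla4 had a log2 fold change of 1.96 ± 0.69 (adjusted p = 0.199), Tigit 1.01 ± 0.53 (adjusted p = 0.396) and Pdcd1 -1.03 ± 0.32 (adjusted p = 0.151). In pre-exposed mice 2 to 4 against the same naïve mice, 6 of the 10 were called higher, namely Ctla4, Tigit, Lag3, Havcr2, Entpd1 and Cd160, where 15.1% of all genes were called higher and 14.5% lower. There Tigit had 1.43 ± 0.38 (adjusted p = 0.0109), Havcr2 1.92 ± 0.60 (adjusted p = 0.0269) and Pdcd1 0.56 ± 0.22 (adjusted p = 0.0688). No naïve library has the label style of pre-exposed mice 2 to 4, so that in these 3 libraries exposure and whatever the style marks cannot be told apart. Both comparisons share the naïve libraries, and the difference between them was not tested. With the length trend removed from every library, 0 of the 10 passed by edgeR (1.38% of all genes called higher), 4 were higher at an unadjusted p under 0.05 (9.59% of all genes), and Ctla4 had 1.70 (adjusted p = 0.0986), Tigit 0.75 (adjusted p = 0.334) and Entpd1 1.15 (adjusted p = 0.0887).

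**Figure D3:**
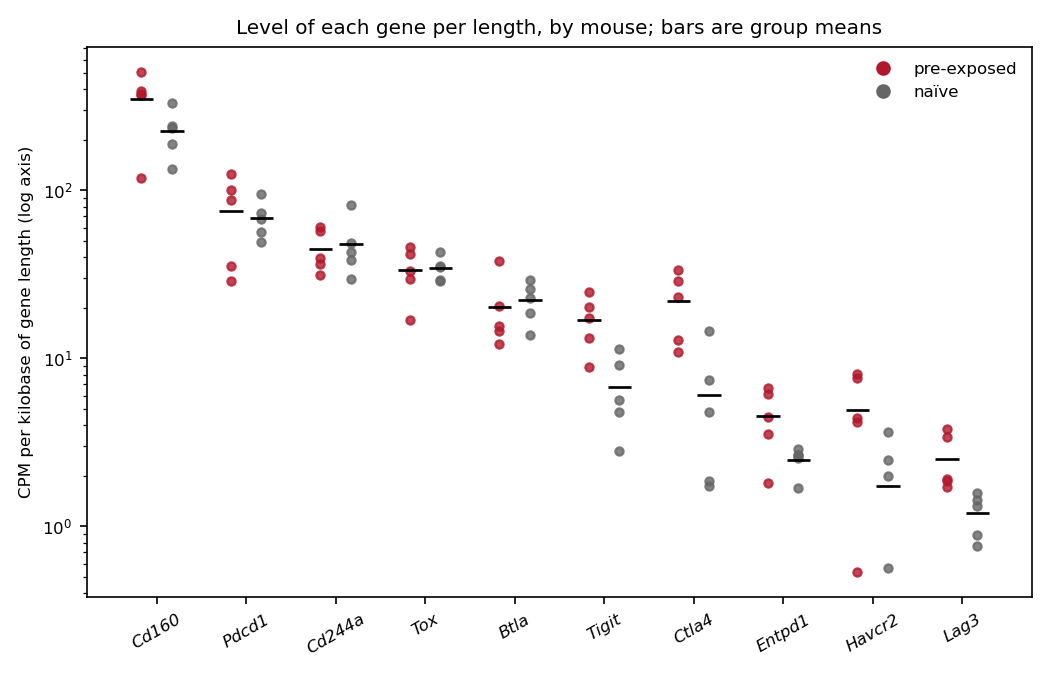
Level of each gene in CPM per kilobase of gene length on a log axis, with pre-exposed mice in red left of naïve mice in grey, one point per mouse and a bar at each group mean (n = 5 each). Genes run from Cd160, at a naïve mean of 227, down to Lag3, at 1.20. Naïve mouse 2 has no Havcr2 count and is not drawn there but enters the mean.

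Divided by gene length, the levels spanned more than 2 orders of magnitude. The relation of level to length differed between libraries, and how full-length the coverage was is unsure. Ranks of genes, and their change between groups, are therefore approximate. Cd160 averaged 352 ± 142 CPM per kilobase in pre-exposed mice and 227 ± 72.6 in naïve mice (SD, n = 5 each), followed in both groups by Pdcd1, with 75.5 ± 41.9 in pre-exposed mice and 68.2 ± 17.7 in naïve mice. Cd244a (45.0 CPM per kilobase in pre-exposed and 48.2 in naïve mice) and Tox (33.5 in pre-exposed and 34.4 in naïve mice) came next in both groups, and ranges of neighbouring genes from Pdcd1 to Tox overlapped. Ctla4 ranked 5 of the 10 in pre-exposed mice, at 21.9 ± 9.89 CPM per kilobase, against rank 7 in naïve mice, at 6.06 ± 5.25. Its neighbours Btla (20.1 ± 10.4 in pre-exposed and 22.2 ± 6.10 in naïve mice) and Tigit (16.9 ± 6.20 in pre-exposed and 6.76 ± 3.45 in naïve mice) were within 1 SD of it in pre-exposed mice. Entpd1, Havcr2 and Lag3 held the lowest 3 places in both groups, with 4.54, 4.96 and 2.53 CPM per kilobase in pre-exposed mice, against 2.48, 1.74 and 1.20 in naïve mice. In CPM per kilobase, Cd160 alone made up 38.7% to 76.1% of the sum over the 10 genes in pre-exposed mice and 45.6% to 59.5% in naïve mice. Spread also differed between genes. Within pre-exposed mice the highest value was 15.1 times the lowest for Havcr2 and 4.35 times for Pdcd1, and within naïve mice it was 8.31 times for Ctla4 and 1.495 times for Tox.

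Across the 10 libraries, which share groups, depth and library quality, the genes did not follow one order. On the log2 CPM scale Lag3 and Tigit were the closest pair by Pearson's r (0.875, Spearman's rho = 0.806), followed by Tigit and Ctla4 (r = 0.822, rho = 0.83) and Havcr2 and Ctla4 (r = 0.795, rho = 0.806). By rho the closest pair was Tigit and Entpd1 (r = 0.714, rho = 0.842). Havcr2 and Cd244a ran opposite to each other (r = -0.786, rho = -0.539), as did Pdcd1 and Btla (r = -0.546, rho = -0.648). These are descriptions, given without a test. Of 10488 well-expressed genes, the most similar profiles to Ctla4 were those of BC028528 (r = 0.992) and Gpm6b (r = 0.972), and to Tigit those of Arf6 (r = 0.931) and Cd86 (r = 0.93). For Havcr2 they were Susd3 (r = 0.955) and Slc2a6 (r = 0.941), for Entpd1 BC051537 (r = 0.933) and Fgr (r = 0.929), and for Pdcd1 Trap1 (r = 0.97) and Coq8a (r = 0.969). For Lag3 they were Anp32b-ps1 (r = 0.957) and Gm21596 (r = 0.942), for Cd160 4930486L24Rik and Gm9169 (r = 0.972 each), and for Cd244a Rnf128 (r = 0.973) and Serpinb6b (r = 0.957). Btla was nearest to Ssr3 (r = 0.915) and Naa50 (r = 0.907), and Tox to Dph7 (r = 0.917) and Tmem121b (r = 0.899).

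Among ligands of the receptors, 3 of 15 tested genes were called higher and 0 lower by edgeR, beside 5.12% and 1.17% of all genes, with a median log2 fold change of 0.95. All 3 were chains of MHC class II, the ligand of LAG-3, namely H2-Aa (4.54 ± 0.71, adjusted p = 0.00762), H2-Ab1 (4.43 ± 0.80, adjusted p = 0.0118) and H2-Eb1 (4.09 ± 0.69, adjusted p = 0.00930). H2-Aa had 799, 1460, 706, 492 and 58.5 CPM in pre-exposed mice 1 to 5, against 7.56, 14.8, 38.3, 60.1 and 31.8 CPM in naïve mice, so that only pre-exposed mouse 5 overlapped the naïve group. All 3 remained called on leaving out any one library, but none with the label style as a covariate (3.66 to 3.83, edgeR adjusted p between 0.0537 and 0.062). Summed markers of conventional dendritic cells and of monocytes and macrophages, which carry MHC class II, were likewise high in pre-exposed mice 1 to 4 and low in pre-exposed mouse 5, with the sums given further on. Their part in these 3 results was not tested. Cd86, a ligand of CTLA-4, had a log2 fold change of 1.42 (edgeR adjusted p = 0.0936), and Cd274, the gene of PD-L1, had -0.45 (edgeR adjusted p = 0.294); both are named here after their values were seen.

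Of 12 signalling proteins downstream of the receptors 1 was called higher and 0 lower (median 0.06), where edgeR called 5.12% of all genes higher and 1.17% lower. It was Sh2d1b1, the gene of the 2B4 adaptor EAT-2, with 9.14 ± 6.56 CPM in pre-exposed mice and 1.64 ± 0.887 CPM in naïve mice (log2 fold change 2.51 ± 0.60, edgeR adjusted p = 0.0297, exact permutation p = 0.0556). Sh2d1b1 had 12.9, 16.35, 11.9, 3.40 and 1.09 CPM in pre-exposed mice 1 to 5, against 0.931 to 3.16 CPM in naïve mice, so that pre-exposed mouse 5 was within the naïve range. Among 8 activating and competing receptors of the same ligand families 0 were called by edgeR and 1 was higher before adjustment at p under 0.05 (median 0.23), beside 15.6% of all genes. Icos, a costimulatory relative of CD28, came nearest. It had 242, 266, 343, 238 and 376 CPM in pre-exposed mice 1 to 5, each above the naïve mice at 165, 179, 226, 195 and 148 CPM (log2 fold change 0.68 ± 0.22, edgeR adjusted p = 0.0749, exact permutation p = 0.00794). Of 11 other inhibitory receptors tested 3 were called higher and 0 lower (median 0.41), namely Cd300a (3.97 ± 0.79, edgeR adjusted p = 0.0173), a receptor of myeloid and lymphoid cells, Klrg1 (2.78 ± 0.57, adjusted p = 0.0184), found on effector T and NK cells, and Lilrb4a (1.32 ± 0.36, adjusted p = 0.0454). Klrg1 had 98.3, 50.1, 112, 17.2 and 11.3 CPM in pre-exposed mice, against 11.0, 6.51, 5.38, 5.32 and 14.7 CPM in naïve mice. Cd300a was at 0 in pre-exposed mouse 5.

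Of 15 transcription factors of exhausted and effector T cells 1 was called higher and 0 lower (median 0.27), beside 5.12% and 1.17% of all genes. It was Bhlhe40, which supports cytokine production by T cells, at 190 ± 71.9 CPM in pre-exposed mice and 79.6 ± 20.6 CPM in naïve mice (log2 fold change 1.26 ± 0.30, edgeR adjusted p = 0.0294). Of 11 genes of progenitor exhausted T cells 2 were called higher and 0 lower (median 0.15). Xcl1, a chemokine gene that NK cells and activated T cells also express, had 1.85 ± 0.43 (adjusted p = 0.0276), and Cxcr5, a follicle-homing receptor gene, had 1.65 ± 0.43 (adjusted p = 0.0382), both by edgeR. Xcl1 had 145, 500.4, 389, 463 and 1312 CPM in pre-exposed mice 1 to 5, against 131, 203, 191, 115 and 136 CPM in naïve mice, with pre-exposed mouse 5 far above the rest and pre-exposed mouse 1 within the naïve range. Without pre-exposed mouse 5 its log2 fold change was 1.22 (edgeR adjusted p = 0.0152), and with the length trend removed it was 0.74 (edgeR adjusted p = 0.217). Cxcr5 was at 12.5 to 23.3 CPM in pre-exposed mice, above all naïve mice at 2.43 to 11.6 CPM. Of 9 tested genes of the extracellular ATP and adenosine pathway, to which CD39 belongs, 0 were called. Before adjustment 2 were higher and 1 lower at p under 0.05, beside 15.6% and 8.73% of all genes. The smallest p was that of the adenosine receptor gene Adora2b (2.12 ± 0.74, edgeR adjusted p = 0.0918). In pre-exposed mice 1 and 5 against naïve mice, 0 of the 80 genes of these lists tested there were called by edgeR, with 19 higher and 1 lower before adjustment at p under 0.05, beside the 12.9% and 2.6% of all genes given above for the same comparison. On leaving out 1 library at a time, Sh2d1b1 and Bhlhe40 stayed called in 4 of 10 cases each, Lilrb4a in 1, Xcl1 in 5, Cxcr5 in 3, and Cd300a and Klrg1 in 8 each. All 7 lost the call without pre-exposed mouse 2 (edgeR adjusted p between 0.0579 and 0.133) and without naïve mouse 1 (between 0.05 and 0.103). Sh2d1b1, Bhlhe40 and Cxcr5 also lost it without pre-exposed mouse 3 and without naïve mouse 2, 4 or 5, Cxcr5 without pre-exposed mouse 4, and Xcl1 without naïve mouse 2, 4 or 5, whereas Lilrb4a kept it only without pre-exposed mouse 5.

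**Figure D4:**
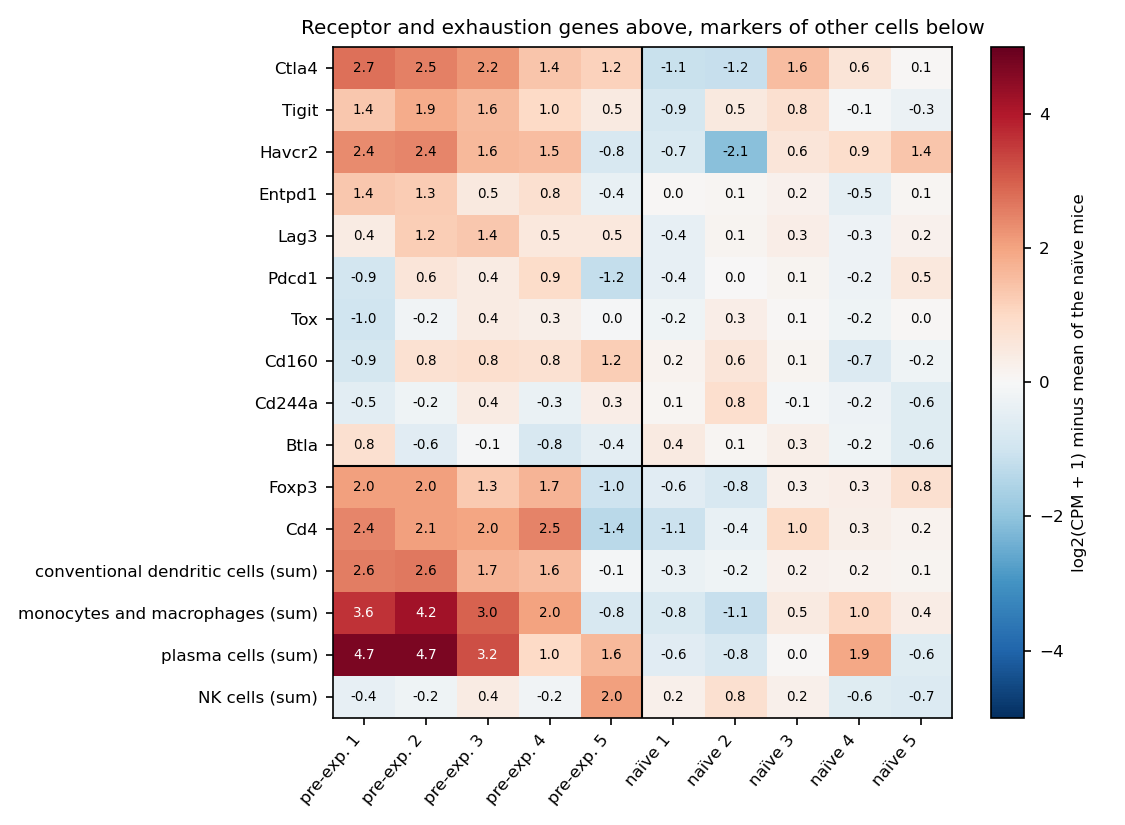
Each cell is log2(CPM + 1) minus the mean of the naïve mice, for the 10 genes (above the line) and for markers of other cells (below), where lists are summed. Columns are mice, with pre-exposed mice left of the vertical line and naïve mice right of it. Pre-exposed mice 1 to 4 share high Tigit and Havcr2 with high Foxp3, Cd4, dendritic cell and monocyte markers, and pre-exposed mouse 5 does not share those markers. Ctla4 is at 1.39 in pre-exposed mouse 4 and 1.17 in pre-exposed mouse 5, both below naïve mouse 3 at 1.56.

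Markers of other cells moved with several of these genes, and their part in the results was not tested. The gate on CD3 and γδTCR was set to select γδ T cells, and the purity of the sorted cells is not given in the sources used here. Immunoglobulin genes held 4.499%, 6.682%, 1.702%, 0.5563% and 0.3454% of the counts in pre-exposed mice 1 to 5, against 0.08447% to 0.7373% in naïve mice. In bulk samples more cells of a type and more RNA per cell cannot be told apart. Foxp3, the defining factor of regulatory T cells, had 42.5, 42.6, 25.1, 33.4 and 4.18 CPM in pre-exposed mice 1 to 5, against 6.17, 5.07, 11.7, 12.2 and 17.2 CPM in naïve mice (log2 fold change 1.55, edgeR adjusted p = 0.0680). It was high in the same 4 pre-exposed mice as Tigit, Havcr2 and Entpd1. Of the 6 regulatory T cell markers 5 were tested and 1 was called higher, beside 5.12% of all genes. It was Tnfrsf4 (2.60, edgeR adjusted p = 0.0347, called with 1 library left out only without pre-exposed mouse 1, pre-exposed mouse 5 or naïve mouse 3, and 3.39 without the last). Il2ra (-0.08), Ikzf2 (-0.14) and Ikzf4 (-0.02) did not pass. The list summed to 247 to 299 CPM in pre-exposed mice and 178 to 238 CPM in naïve mice. Cd4 had 108, 82.8, 79.2, 113 and 6.90 CPM in pre-exposed mice, against 8.51 to 38.7 CPM in naïve mice (1.87, edgeR adjusted p = 0.0513). In pre-exposed mouse 5 Foxp3 and Cd4 were below every naïve mouse, whereas Ikzf2, at 202 CPM, and the sum of the list, at 299 CPM, were the highest of all 10 libraries. In the same mouse Lag3 was above every naïve mouse and Ctla4 above 4 of the 5.

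Conventional dendritic cell markers (5 of 8 called higher, beside 5.12% of all genes) summed to 66.9 to 446 CPM in pre-exposed mice and 57.4 to 83.6 CPM in naïve mice. Cd209a alone gave 255 and 319 CPM of the sums of pre-exposed mice 1 and 2. Zbtb46, Itgax and Xcr1 were not called (edgeR adjusted p of 0.06 to 0.994). Monocyte and macrophage markers (4 of 6 tested called higher, of 10 listed) came to 994, 1486, 629, 327 and a low 46.0 CPM in the sums of pre-exposed mice 1 to 5, against 36.0 to 165 CPM in naïve mice. Havcr2 and Entpd1 were high in the same 4 pre-exposed mice and low in pre-exposed mouse 5. Lyz2 alone gave 778 and 1250 CPM of the monocyte and macrophage sums of pre-exposed mice 1 and 2. In pre-exposed mouse 5 Adgre1, at 14.35 CPM, was above every naïve mouse (0.404 to 3.08 CPM). Lyz2, Csf1r, Cd68 and Itgam of that mouse were within or below the naïve range. NK cell markers (0 of 5 called) came to sums of 796, 901, 1404, 943 and a high 4334 CPM in pre-exposed mice 1 to 5, against 655 to 1818 CPM in naïve mice, and pre-exposed mouse 5 also had the highest Cd160. Klre1 alone gave 3118 of these 4334 CPM. Without it the sum was 1216 CPM in pre-exposed mouse 5 and 399.5 to 1120 CPM in naïve mice. Ncr1 and Klrb1c of pre-exposed mouse 5 were within the naïve range. Klri2 (338.5 CPM) and Eomes (259 CPM) of the same mouse were above every naïve mouse, at 30.3 to 154 and 63.7 to 149 CPM. Plasma cell markers (2 of 3 tested called higher) summed to 402 to 5369 CPM in pre-exposed mice and 117 to 786 CPM in naïve mice. The highest sums were in pre-exposed mice 1 and 2, where Jchain alone gave 5193 and 5183 CPM. Jchain and Mzb1 were called, and Sdc1 was not (log2 fold change 0.08, edgeR adjusted p = 0.940). Markers of αβ T cells (1 of 8 called higher) summed to 1834 to 3493 CPM in pre-exposed mice and 1845 to 2234 CPM in naïve mice. The gene called was Trac (log2 fold change 1.17, edgeR adjusted p = 0.0222). Trac was at 270 to 507 CPM in pre-exposed mice, with pre-exposed mouse 5 at 270, above all naïve mice at 127 to 228 CPM. Markers of γδ T cells (1 of 7 called higher) summed to 4048 to 12990 CPM in pre-exposed mice and 6049 to 9780 CPM in naïve mice. Plasmacytoid dendritic cell markers summed to 54.7 to 230.5 CPM in pre-exposed mice and 23.9 to 36.1 CPM in naïve mice. In pre-exposed mouse 5 Cox6a2, which was not called, gave 45.2 of the 54.7 CPM. There Siglech (0.545 CPM) was within the naïve range, Pacsin1 (7.99 CPM) below it and Klk1 (0.908 CPM) above it. Those of mast cells and basophils summed to 12.3 to 91.4 CPM in pre-exposed mice and 4.33 to 11.3 CPM in naïve mice. In pre-exposed mouse 5 nearly all of it was Cpa3 (12.2 CPM), with Mcpt8 at 0.182 CPM and Fcer1a, Ms4a2 and Prss34 at 0. Those of erythroid cells summed to 325 to 2040 CPM in pre-exposed mice and 79.6 to 459 CPM in naïve mice. Of 5 tested B cell markers 3 were called higher, namely Cd79a (2.88), Ms4a1 (2.88) and Blnk (3.48), with edgeR adjusted p of 0.0366 to 0.0384. The list summed to 80.5 to 198 CPM in pre-exposed mice and 102 to 166 CPM in naïve mice, mostly from Cd79b and Cd22, which were not called, and Pax5, which defines B cells, was at 0 in every library. Without pre-exposed mice 1 and 2, 0 of the 10 genes were called by edgeR (3.46% of all genes called higher), 4 were higher at an unadjusted p under 0.05 (13.6% of all genes), and Ctla4 had a log2 fold change of 1.34 (adjusted p = 0.205).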

How the data were processed

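One library of EM γδ T cells was made from each of 5 pre-exposed and 5 naïve mice. The authors used Subread to map reads to mm10 and featureCounts to count pairs per Entrez gene, and deposited the raw counts as whole numbers. The versions of Subread and featureCounts and the use of strand: not given in the sources used here. For the library kit, the methods have SMART ultra-low and the labels Illumina TruSeq, so how full-length the coverage was is unsure. The titles name a separate replicate for each library, and the study's methods give 5 mice per group. No library repeated another of the same group (chi-square per gene of at least 22.6), and pairs across groups were not compared.

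Of 27179 genes 25275 had a symbol in the RefSeq annotation of GRCm38.p6. filterByExpr kept 13534, of which 767 without a symbol and 112 immunoglobulin genes were left out, and 12655 were tested. Groups were compared by quasi-likelihood in edgeR 4.0.16 (R 4.3.3, TMM scaling, robust, non-legacy dispersions), two-sided, with all 10 libraries in 1 fit. Benjamini-Hochberg adjustment covered all genes tested, and calls were made at 0.05. The test named in the study's methods, voom with robust TREAT against a 1.5-fold threshold, was run in limma 3.58.1 with its other settings at their defaults, since the methods do not state them, and DESeq2 1.42.0 was a further test. CPM are counts per 1e+06 of the TMM-scaled library size. Exact permutation tests compared mean log2 CPM (prior count 2) over all splits of 5 against 5. A count of 0 allows up to 3 counts at 95% confidence, for counting error only. The length trend was a loess fit per library (span 0.3). Steps were tested on simulated counts.

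The genes described and the gene and marker lists were chosen with earlier results of these data known. The text names all 10 genes, of each related list up to 4 called genes by smallest p or otherwise the 1 with the smallest p, and for each of the 10 the 2 genes of at least 5 CPM with the highest Pearson correlation. Lists are described by counts and medians, without a test. Alternatives covered scaling, filters, tests, a block by replicate number, the style of the labels, subsets of mice, the length trend and each library left out in turn. Leaving out pre-exposed mice 1 and 2, which had the most immunoglobulin counts, was chosen after seeing the data.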

Additional observations from a re-analysis of the deposited data

Results flagged for a closer look

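Entpd1 was low in 1 naïve mouse. Naïve mouse 4 had 7.09 CPM, below the other naïve mice at 10.6 to 12.04 CPM, and the gap to its nearest neighbour took up more of the group's range than Dixon's test allows at the 95% level. Chance gives such a gap in about 1 of 20 groups, and 20 groups were examined here, the 10 genes in each group of mice. Without naïve mouse 4 the log2 fold change of Entpd1 was 0.77, with an edgeR adjusted p of 0.256.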

How the results depend on the processing

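Ctla4, Tigit, Lag3, Havcr2, Entpd1 and Cd160 had a log2 fold change above 0 under all 27 alternatives, and none of the 10 genes was called lower under any. The number called higher, 1 of 10, became 0 with DESeq2's size factors, library totals, no filter on low counts, a minimum of 1 CPM in 5 libraries, all genes kept, legacy dispersions, voom and limma with or without TREAT, quality weights, a covariate for label style, only pre-exposed mice 1 and 5, the length trend removed, or pre-exposed mice 1 and 2 left out. It was 2 by DESeq2 (Ctla4 and Tigit, where 7.97% of all genes were called higher), 6 in pre-exposed mice 2 to 4, and 0 to 4 with 1 library left out, the 4 being Ctla4, Tigit, Havcr2 and Entpd1 without pre-exposed mouse 5 (9.69% of all genes called higher). Genes called over the whole table numbered 796, and 358 with legacy dispersions, 1350 by DESeq2, 96 by voom and limma, 2 by TREAT, 287 with quality weights, 40 with the label style, 27 in pre-exposed mice 1 and 5, 3904 in pre-exposed mice 2 to 4, 218 with the length trend removed, and 81 to 1996 with 1 library left out. The cause of these differences was not tested.

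With the replicate number as a block, 54 genes and 0 of the 10 were called, and Pdcd1 had a log2 fold change of -0.01. The labels do not say that the numbers pair mice, deviations of same-numbered mice correlated at -0.261 to 0.053, and 0 of the 5 pre-exposed mice correlated best with the naïve mouse of its own number.

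Signs turned only for Pdcd1, Tox, Cd244a and Btla, which were near 0 in the main fit. For Pdcd1 some of the turned values were far from 0. Pdcd1 had -0.004 by voom, with or without TREAT, -1.09 with the label style (edgeR adjusted p = 0.0887), -1.03 in pre-exposed mice 1 and 5, -0.07 with the length trend removed and -0.10 to 0.33 with 1 library left out. Tox had 0.22 with quality weights, 0.12 in pre-exposed mice 2 to 4, 0.08 with the length trend removed, 0.18 without pre-exposed mice 1 and 2, and -0.18 to 0.13 with 1 library left out. Cd244a had 0.17 with quality weights, 0.18 with the length trend removed, 0.07 without pre-exposed mice 1 and 2, and -0.24 to 0.17 with 1 library left out, 0.00093 among them. Btla had 0.28 with the label style and 0.32 in pre-exposed mice 1 and 5. Lag3 rested on as few as 15 counts in a library, and Havcr2 had 0 in naïve mouse 2, the deepest naïve library.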
